A study of Homo sapiens with 9 samples.

Results

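The genes described here encode the subunits of the respiratory chain and of ATP synthase, together with the assembly factors that carry the same symbol prefixes. They were taken as every protein-coding gene whose symbol begins with NDUFA, NDUFB, NDUFC, NDUFS, NDUFV, SDHA to SDHD, UQCR, COX4 to COX8, ATP5, MT-ND, MT-CO, MT-CYB or MT-ATP. The rule found 115 of the 37247 listed genes, of which 102 lie in the nuclear genome and 13 in the mitochondrial genome. A further 191 listed genes with matching symbols are not protein-coding and were left out. The nuclear set held 37 genes of complex I, 4 of complex II, 9 of complex III, 18 of complex IV and 18 of complex V. It also held 12 assembly factors of the NDUFAF and SDHAF families, 2 read-through genes, the supercomplex factor COX7A2L and the ATP synthase inhibitor ATP5IF1. The mitochondrial set held 7 genes of complex I, 1 of complex III, 3 of complex IV and 2 of complex V.

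RNA sequencing was done on an immortalized line of human trabecular meshwork cells, the tissue that drains aqueous humour from the eye. All groups had 24 h without serum and then 6 h of exposure. The agents were norepinephrine (NE, an adrenergic agonist) at 1 µM, dexamethasone (DEX, a synthetic glucocorticoid) at 0.1 µM, or the vehicle DMSO. Each group has 3 labelled replicates, and since nothing says that they came from separate cultures, the p-values measure only the spread between these samples. The authors deposited 2 tables, one with 3 DEX and 3 vehicle libraries and one with 3 NE libraries and 3 vehicle columns whose values differ from those of the DEX table. They are called the DEX table and the NE table here. The vehicle columns of the NE table could be tied to the vehicle group but not to individual labelled samples. Whether they are separate cultures or repeat runs of the labelled vehicle samples is not given in the sources used here, so p-values between the vehicle sets and in fits of all 12 libraries may measure the spread between runs.

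Oxidative phosphorylation couples the oxidation of NADH and succinate to ATP synthesis. Complexes I, III and IV pass electrons to oxygen and pump protons across the inner mitochondrial membrane, complex II feeds in electrons from succinate, and complex V uses the proton gradient to make ATP. Complexes I, III, IV and V are mosaics of subunits made from nuclear genes and subunits made from the mitochondrial genome, whereas complex II is wholly nuclear. The nuclear genes are transcribed one by one in the nucleus by RNA polymerase II, while the mitochondrial genes are transcribed as long polycistronic RNAs by the polymerase POLRMT with the factors TFAM and TFB2M. Trabecular meshwork cells are contractile and phagocytic, and in the eye they meet both glucocorticoids and sympathetic transmitter.

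Library totals were 19326830 to 27337259 counts in the DEX table and 31104094 to 36216506 counts in the NE table. The glucocorticoid targets FKBP5, TSC22D3 and PER1 were higher with DEX, and NR4A3, a target of cAMP signalling, was higher with NE, each in the table of that agent. TSC22D3 and PER1 were also called higher with NE (log2 fold changes 0.46 and 0.93, against 3.73 and 2.28 with DEX), NR4A3 was called lower with DEX (-0.50), and DUSP6, a phosphatase gene of ERK signalling, was called lower with NE (-1.23). Of the 13 trabecular meshwork markers, FN1, COL1A2 and FOXC1 were among those present, while MYOC, ANGPTL7, AQP1 and MMP3 had at most 11 counts in any library. Vehicle library 1 of the NE table stood apart from the other libraries of its group, with chi-square values per gene of 17.3 and 21.1 against them, compared with 2.96 between those 2 libraries. Member counts and medians that move with it are given with and without it.

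As a share of the library total, the 13 mitochondrially encoded genes took more counts than all 102 nuclear genes in every library. In the DEX table their share was 3.92%, 3.84% and 3.63% in vehicle libraries 1 to 3 and 3.78%, 3.61% and 3.89% in DEX libraries 1 to 3. The vehicle and DEX libraries overlapped. In the NE table the share was 1.40%, 1.42% and 1.52% in the vehicle libraries and 1.60%, 1.62% and 1.67% in the NE libraries, so that every NE library lay above every vehicle library. The nuclear members took 1.14%, 1.08% and 1.02% in the DEX-table vehicle libraries and 0.972%, 1.00% and 1.05% in the DEX libraries. They took 1.09%, 0.951% and 0.929% in the NE-table vehicle libraries and 1.03%, 0.948% and 0.906% in the NE libraries. The nuclear shares overlapped between treatment and vehicle in both tables. The ratio of mitochondrial to nuclear counts was 3.52 ± 0.07 with vehicle and 3.74 ± 0.14 with DEX in the DEX table (SD, n = 3), and the DEX libraries lay above the vehicle libraries. In the NE table it was 1.47 ± 0.18 with vehicle and 1.70 ± 0.15 with NE (SD, n = 3), with overlapping groups. In bulk RNA, fewer mitochondrial transcripts per cell and fewer cells that carry them cannot be told apart.

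**Figure D1:**
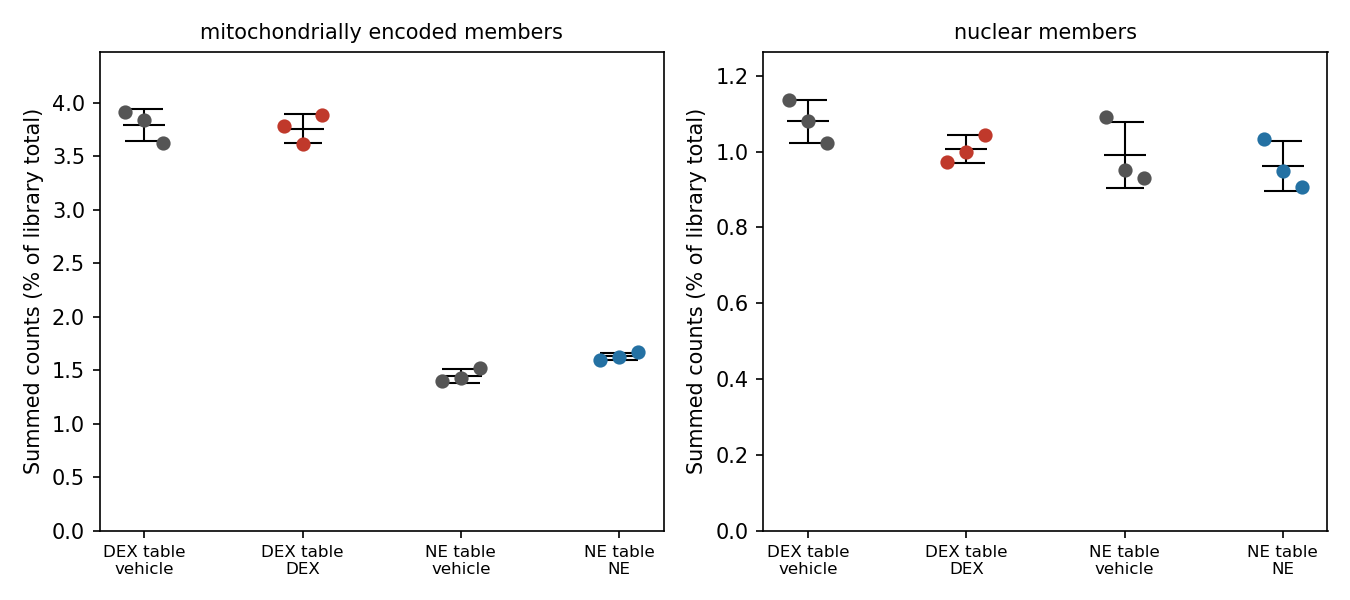
Share of the library total (%, linear axis from 0) taken by the 13 mitochondrially encoded and the 102 nuclear members, 1 point per library, with the group mean and SD as horizontal lines. The mitochondrial share lies between 3.61% and 3.92% in all libraries of the DEX table and between 1.40% and 1.67% in all libraries of the NE table, while the nuclear share lies near 1% in both.

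The mitochondrial genes were ranked by CPM per kilobase, the counts scaled by TMM-adjusted library size and divided by transcript length. With vehicle in the DEX table MT-CO1, the catalytic subunit of complex IV, stood at 7814 ± 166 and MT-CO2, its copper-carrying partner, at 7636 ± 516 CPM per kilobase (SD, n = 3), which is within their spread. MT-CO3 followed at 4803 ± 325, MT-ATP6, the proton channel subunit of complex V, at 3198 ± 330 and MT-ND4 at 2929 ± 106, the last 2 again within their spread. MT-ND3, MT-ATP8, MT-CYB, MT-ND1 and MT-ND4L lay close together between 2147 and 2383. MT-ND2 stood at 1866 ± 112, MT-ND6 at 1656 ± 242 and MT-ND5 at 1120 ± 31. With vehicle in the NE table the order began with MT-CO2 at 2920 ± 208 and MT-CO1 at 2541 ± 116, and MT-ND5 was again the lowest at 449 ± 56. MT-ND3 and MT-ND4L, which encode small membrane subunits of complex I, came next after MT-CO3 there, at 1495 ± 97 and 1066 ± 188. In the DEX table they came after MT-ATP6 and MT-ND4, and this change of order across tables was not tested.

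Some of these genes share bases, so their counts are not wholly separate. MT-ATP8 and MT-ATP6, whose products both sit in the membrane part of complex V, overlap by 46 bases at chrM:8527-8572 on the plus strand of GRCh38, which is 22.2% of MT-ATP8 and 6.75% of MT-ATP6. The shared stretch is shown because reads from it could be assigned to either gene. The start codon of MT-ATP6 is in capitals and the sequence is from the GENCODE 29 transcripts.
MT-ATP8 and MT-ATP6 overlap: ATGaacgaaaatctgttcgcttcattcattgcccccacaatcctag
MT-ND4L and MT-ND4 share 7 bases at chrM:10760-10766 in the same way. MT-ND6 is the one member on the minus strand of the mitochondrial genome (chrM:14149-14673), opposite the long heavy-strand RNA, and the strand setting is not given in the sources used here, so its reads and those of the opposite strand cannot be told apart. Annotated nuclear pseudogene copies of MT-ATP6 held 12.6% to 14.2% as many counts as the gene itself in the 4 groups, those of MT-ND1 held 0.496% to 0.964%, and those of each of the other 11 genes held at most 0.187%.

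After DEX, nuclear respiratory chain genes lay slightly below vehicle as a group and few passed the test singly. Of the 102 nuclear members 96 passed the filter on low counts, 0 were called higher and 3 were called lower at an adjusted p below 0.05 (edgeR quasi-likelihood test, Benjamini-Hochberg over all genes tested). Across all 15133 genes tested, 10.1% were called, 6.65% higher and 3.46% lower, and the members had 0 of 96 higher and 3.12% lower. The share called lower is near the background, and no member was called higher. The log2 fold change was below 0 for 86 of the 96 genes, with a median of -0.10, beside a median of -0.01 over all genes tested and 7812 of 15133 genes below 0. In complex IV all 14 tested nuclear genes were below 0 (median -0.12), in complex V all 17 (median -0.12), in complex III 8 of 9 (median -0.12) and in complex I 32 of 37 (median -0.08). Complex II, with 2 of its 4 genes below 0, had a median of 0.00. Of the 12 NDUFAF and SDHAF assembly factors 11 were below 0 (median -0.08). These genes share libraries and normalization, and the DEX and vehicle libraries did not overlap for 12 genes that were lower and 1 that was higher, where 13.1% and 15.2% of all genes tested did so.

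NDUFB4 and NDUFA7 are accessory subunits of complex I, and COX7B is a small structural subunit of complex IV. NDUFB4 stood at 74.0, 69.3 and 75.9 CPM in DEX libraries 1 to 3 and at 85.1, 90.8 and 80.3 CPM in the vehicle libraries. Its groups did not overlap, and the log2 fold change was -0.22 (SE 0.05, adjusted p = 0.0157, edgeR). COX7B stood at 100.6, 100.9 and 112 CPM with DEX and at 132, 118 and 113 CPM with vehicle. Here the highest DEX library came close to the lowest vehicle library, and the log2 fold change was -0.21 (SE 0.06, adjusted p = 0.0399, edgeR). NDUFA7 stood at 42.8, 41.0 and 43.3 CPM with DEX and at 49.3, 50.7 and 45.0 CPM with vehicle, a log2 fold change (FC) of -0.19 (SE 0.06, adjusted p = 0.0456, edgeR). The fitted ratios of DEX to vehicle were 0.857 for NDUFB4, 0.863 for COX7B and 0.878 for NDUFA7, and in all 3 genes vehicle library 3 was the nearest to DEX. DESeq2 also called 3 nuclear genes, of which 2 were the same, and NDUFA7 was not among them (adjusted p = 0.0963). In the fit of all 12 libraries none of the 3 genes passed (edgeR, adjusted p = 0.0666 for NDUFB4, 0.178 for COX7B and 0.274 for NDUFA7), and none passed with the replicate number as a block (0.0717, 0.107 and 0.125). The count of called nuclear genes depended on single libraries. It was 1 without vehicle replicate 1, 0 without vehicle replicate 2, 19 without vehicle replicate 3, 1 without DEX replicate 1, 0 without DEX replicate 2 and 9 without DEX replicate 3. The median of the nuclear members stayed below 0 in all 6 of these fits, between -0.15 and -0.05.

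The promoters of these 3 genes are shown because nuclear respiratory genes are known to share binding sites for NRF1, for GABPA and other ETS factors and for YY1. Each window runs from 250 bases before to 50 bases after the annotated start (RefSeq, GRCh38.p14), and capitals mark exact matches to GCGCNTGCG (NRF1), CCGGAAG (ETS) or AAGATGG (YY1), searched on both strands, with overlapping matches of a motif merged. The NRF1 letters were shortened by a base after a longer form had been counted in these windows.
NDUFB4, chr3:120596086-120596385, plus strand: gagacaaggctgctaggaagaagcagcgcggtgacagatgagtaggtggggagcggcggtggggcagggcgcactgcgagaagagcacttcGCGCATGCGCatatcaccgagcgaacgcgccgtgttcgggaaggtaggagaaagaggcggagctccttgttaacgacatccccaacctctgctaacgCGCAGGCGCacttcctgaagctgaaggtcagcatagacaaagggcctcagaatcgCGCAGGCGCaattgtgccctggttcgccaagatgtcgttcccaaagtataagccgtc
NDUFA7, chr19:8321326-8321625, minus strand: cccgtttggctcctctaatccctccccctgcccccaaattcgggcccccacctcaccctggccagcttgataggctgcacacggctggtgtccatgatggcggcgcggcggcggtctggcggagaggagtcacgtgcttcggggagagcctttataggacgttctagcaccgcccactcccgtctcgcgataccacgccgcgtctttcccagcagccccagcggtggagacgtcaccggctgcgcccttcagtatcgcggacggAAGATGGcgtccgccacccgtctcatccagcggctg
COX7B, chrX:77899218-77899517, plus strand: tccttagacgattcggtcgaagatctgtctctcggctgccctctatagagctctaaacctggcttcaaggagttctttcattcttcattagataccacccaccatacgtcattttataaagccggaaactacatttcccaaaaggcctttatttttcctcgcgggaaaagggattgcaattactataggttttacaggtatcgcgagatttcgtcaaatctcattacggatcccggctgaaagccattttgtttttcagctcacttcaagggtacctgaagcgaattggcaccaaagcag
The NDUFB4 window held 3 NRF1 matches, the NDUFA7 window held 1 YY1 match just past the start, and the COX7B window held none of the 3 motifs. Of the 102 nuclear members 82 were matched to a RefSeq window. Among these, 31.7% held the NRF1 motif, 28.0% the ETS motif and 19.5% the YY1 motif, and 58.5% held at least 1 of the 3. Among all 27305 windows the shares were 8.05%, 10.7%, 6.06% and 21.8%. Those windows were not limited to protein-coding genes, as the members were, so the shares compare unlike sets. The CREB motif TGACGTCA was in 6.1% of member windows and 1.98% of all windows. Such matches describe letters in a window and not occupied sites.

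The mitochondrially encoded genes were not called with DEX. Of the 13 genes 0 passed the test, none had an unadjusted p below 0.05, 5 lay above 0 and 8 below, and the median log2 fold change was -0.02. DESeq2 also called 0, and 1 gene was called without vehicle replicate 3 or without DEX replicate 3. MT-CO1 stood at 12170, 11640 and 12030 CPM with DEX and at 11990, 11770 and 11510 CPM with vehicle, with overlapping groups and a log2 FC of 0.02 (SE 0.04). Its level and its scatter were alike in both groups. MT-ND4L moved most, with a log2 FC of 0.18 (SE 0.10, adjusted p = 0.345 by edgeR). MT-ND5, a proton-pumping subunit, was the one gene whose groups did not overlap, at 2066, 2040 and 2074 CPM with DEX and 2020, 2001 and 1921 CPM with vehicle, where 15.2% of all genes tested lay apart in that direction. Its log2 FC of 0.06 (SE 0.04) did not pass (adjusted p = 0.469, edgeR). MT-ATP8 was uneven among the DEX libraries, at 405, 349 and 673 CPM against 478, 499 and 429 CPM with vehicle. DEX library 3 alone lay above the vehicle libraries. The log2 fold change was 0.02 (SE 0.29) with all libraries and -0.31 (adjusted p = 0.0398, edgeR) without DEX replicate 3, a change of direction that rests on that library.

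With NE the mitochondrial genes moved in one direction. All 13 lay above vehicle, with log2 fold changes from 0.09 for MT-ND6 to 0.25 for MT-ND2 and a median of 0.15, beside a median of 0.00 over all genes tested. MT-ND2, a proton-pumping subunit of complex I, rose 1.19-fold and was the 1 gene of the 13 called (log2 fold change 0.25, SE 0.04, adjusted p = 0.0205, edgeR). Across all 15630 genes tested 2.82% were called, 1.48% higher and 1.34% lower. The NE and vehicle libraries did not overlap for 7 of the 13 genes, all higher with NE, where 11.1% of all genes tested lay apart in that direction. The 7 were MT-ND1, MT-ND2, MT-ND4, MT-CYB, MT-CO1, MT-CO3 and MT-ATP6. These 13 genes are read from few long transcripts and share the same libraries, so they are not 13 independent observations.

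MT-ND2 stood at 1027, 1020 and 1013 CPM in NE libraries 1 to 3 and at 858, 847 and 874 CPM in the vehicle libraries. The 3 NE libraries were tightly grouped above the 3 vehicle libraries. MT-ND1, which helps form the ubiquinone pocket of complex I, stood at 834, 850.3 and 843 CPM with NE and at 703, 732 and 774 CPM with vehicle, with a log2 FC of 0.19 (SE 0.05, adjusted p = 0.0960, edgeR). MT-ATP6 stood at 755, 743 and 783 CPM with NE and at 682, 640 and 705 CPM with vehicle, a log2 FC of 0.17 (SE 0.05, adjusted p = 0.164, edgeR). Both genes lay apart by group, and in both vehicle library 3 was the nearest to NE. MT-CO1 stood at 4291, 4410 and 4537 CPM with NE and at 3875, 3938 and 4222 CPM with vehicle, a log2 FC of 0.14 (SE 0.06, adjusted p = 0.320, edgeR). MT-CYB, the mitochondrial subunit of complex III, had a log2 FC of 0.14 (SE 0.05, adjusted p = 0.286, edgeR). The call of MT-ND2 held without vehicle replicate 1 (adjusted p = 0.00511, edgeR). It ended when vehicle replicate 2 or 3 or NE replicate 1, 2 or 3 was left out, with adjusted p from 0.0681 to 0.144 (edgeR) and log2 fold changes from 0.24 to 0.26. All 13 genes stayed above 0 in each of those fits.

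No label states that the replicate numbers pair libraries. In the NE table same-numbered NE and vehicle libraries, called pairs here, deviated together, with correlations of 0.547, 0.167 and 0.331. NE library 3 also did so with vehicle library 2 (0.244), so the pairing was read from these data and is not certain. With the replicate number as a block, 11 of the 13 mitochondrial genes were called higher and 0 lower, where 10.8% of all genes tested were called and 5.07% were called higher. The log2 fold changes were nearly the same as without the block, and their standard errors were smaller. The 11 included MT-ND2 (0.25, SE 0.03, adjusted p = 4.3e-05), MT-ND1 (0.20, SE 0.03, adjusted p = 0.000809), MT-ATP6 (0.17, SE 0.03, adjusted p = 0.00162) and MT-CYB (0.14, SE 0.03, adjusted p = 0.00897), all by edgeR. MT-ND6 (0.09, SE 0.04, adjusted p = 0.124) and MT-ATP8 (0.15, SE 0.05, adjusted p = 0.147) were not called. In blocked fits without both libraries of replicate number 1, 2 or 3, tried after the data were seen, 12, 2 and 6 of the 13 genes were called higher. MT-ND2 and MT-ND1 were called in each of these fits (edgeR, adjusted p up to 0.00317 and 0.0235). Within the pairs, 11 of the 13 genes were higher with NE in all 3 pairs, where 22.7% of all genes tested were. MT-ND2 differed by 0.26, 0.27 and 0.21 on the log2 scale in pairs 1 to 3, and MT-ATP8 by -0.001, 0.14 and 0.30, so that the pairs agreed closely for the first gene and not for the second.

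**Figure D2:**
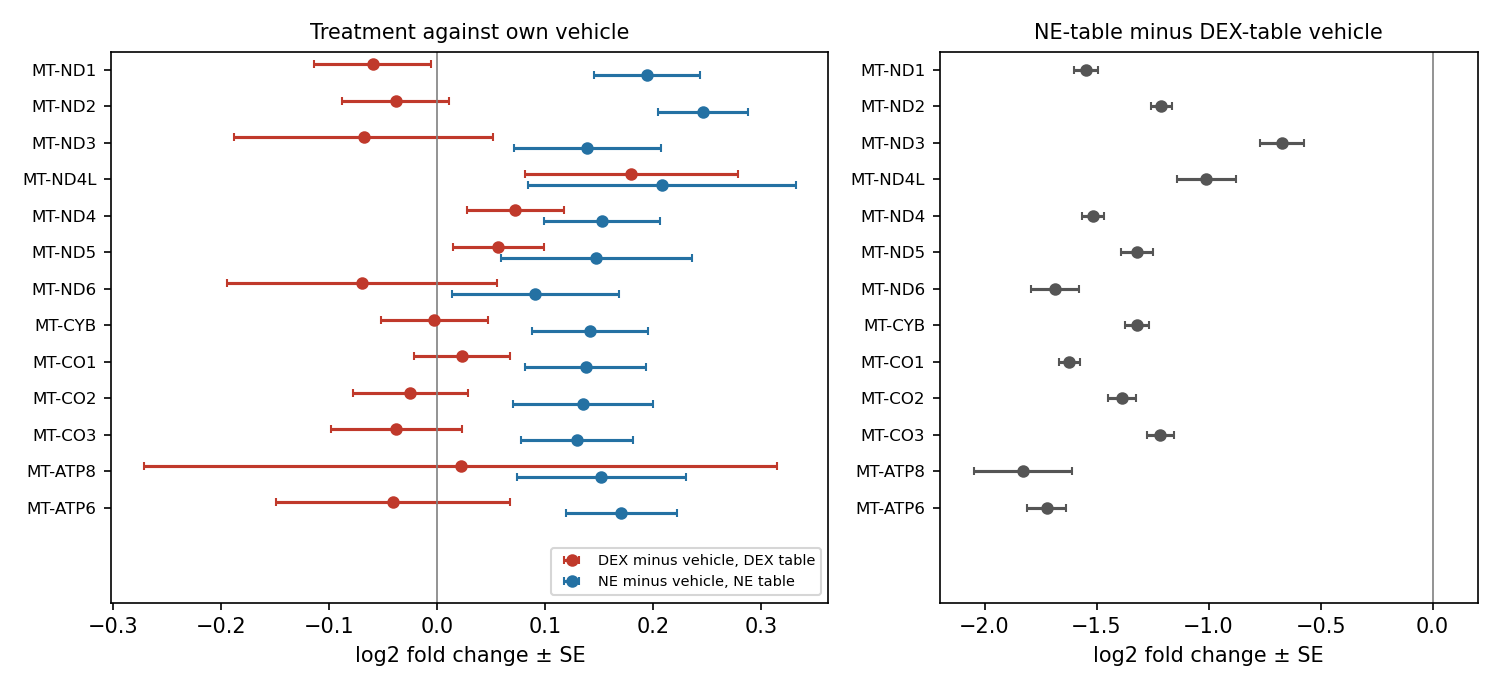
Left, log2 fold change with its standard error of each mitochondrially encoded gene for DEX (red) and NE (blue), each relative to its own 3 vehicle libraries. Right, the same for the NE-table vehicle minus the DEX-table vehicle. The NE values are all above 0, from 0.09 to 0.25, the DEX values scatter from -0.07 to 0.18, and the vehicle differences run from -1.83 to -0.67.

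**Figure D3:**
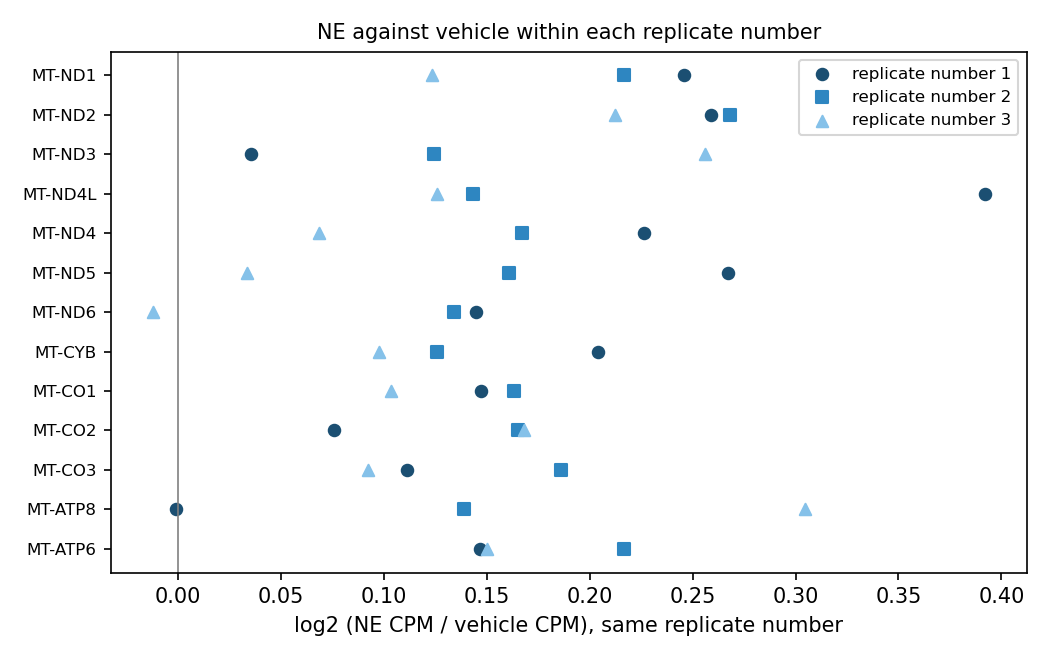
Log2 ratio of NE to vehicle CPM for each mitochondrially encoded gene within each replicate number of the NE table, 1 point per pair. In 11 of the 13 genes all 3 pairs lie above 0, and MT-ND6 and MT-ATP8 each have 1 pair just below 0.

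The nuclear members did not follow the mitochondrial genes with NE. Of 97 tested, 0 were called in either direction (edgeR), 1 had an unadjusted p below 0.05, DESeq2 also called 0, and 85 lay below 0 with a median log2 fold change of -0.07. Vehicle library 1, which stood apart, had the highest summed nuclear level of its table. That sum was 10890 CPM, against 9280 and 9054 CPM in vehicle libraries 2 and 3 and 10150, 9137 and 8747 CPM in NE libraries 1 to 3. NE lay below vehicle in each same-numbered pair, while the groups overlapped. Without vehicle replicate 1 the median turned to 0.03 and 29 of 97 genes lay below 0. Without both libraries of replicate number 1 the median was -0.04, 71 of 97 lay below 0 and 1 was called lower. The gene with the smallest p was SDHC, a membrane anchor of complex II, at 141, 139 and 132 CPM with NE and 153, 148 and 146 CPM with vehicle (log2 fold change -0.11, SE 0.04, adjusted p = 0.298, edgeR). With the replicate block 7 nuclear genes were called lower and 0 higher, where 5.73% of all genes tested were called lower. Without both libraries of replicate number 1, 2 or 3 the blocked fit called 4, 5 and 0 nuclear genes lower and 1, 1 and 0 higher. The 7 genes called lower in the blocked fit with no library left out were named after their values were seen. They were ATP5MC1 and ATP5MC3, which encode the same c-ring subunit of complex V, and the complex V subunit ATP5MK. The others were the complex IV subunit COX7C, COX7A2L, the complex I assembly factor NDUFAF2, and SDHC. ATP5MC3 stood at 173, 146 and 134 CPM with NE and 193, 159 and 154 CPM with vehicle, and its blocked log2 fold change was -0.16 (SE 0.03, adjusted p = 0.00301, edgeR). NE lay below vehicle in every pair although the groups overlapped. Leaving out vehicle replicate 2 gave 1 called nuclear gene without the block, and each of the other 5 libraries left out in turn gave 0. Over all 97 nuclear genes, 48 were lower with NE in all 3 pairs and 3 were higher in all 3, where 23.6% and 22.7% of all genes tested were.

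**Figure D4:**
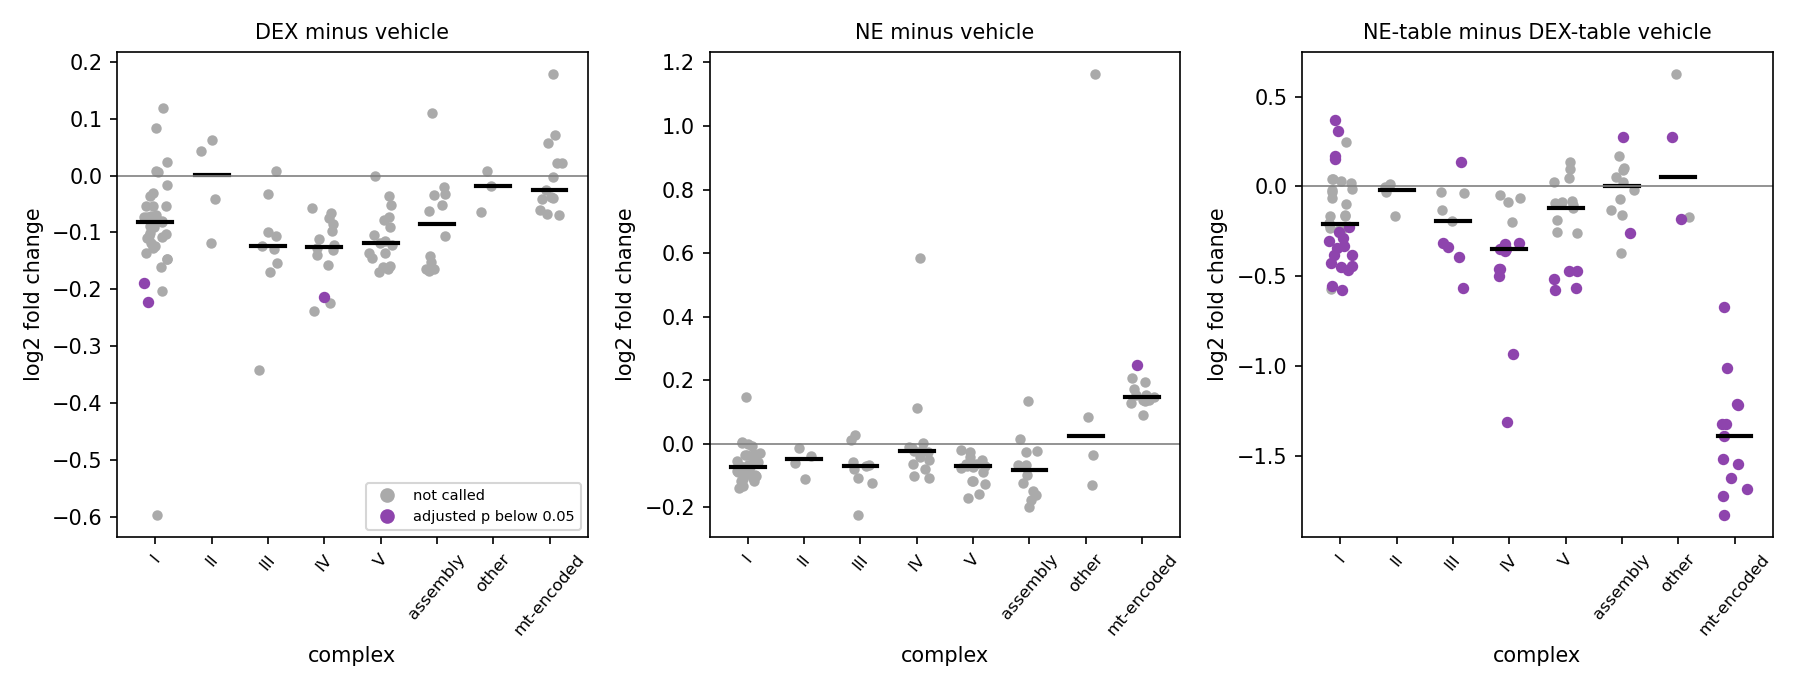
Log2 fold change of each tested member by complex, with nuclear genes in the first 7 columns ("other" holds the read-through genes, COX7A2L and ATP5IF1) and the 13 mitochondrially encoded genes in the last. Purple points passed an adjusted p below 0.05, grey points did not, black lines are medians, and the 3 panels have different axes. With DEX the nuclear columns I, III, IV and V have medians from -0.12 to -0.08, with NE the mitochondrial column has a median of 0.15, and between the vehicle sets it has a median of -1.39.

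Whether the treatments differed from each other was tested as the DEX effect minus the NE effect in a fit of all 12 libraries. Each agent was present only in its own table, so agent and table cannot be told apart in this difference. Of the 13 mitochondrial genes 1 was called, MT-ND2, with a difference of -0.29 on the log2 scale (SE 0.06, adjusted p = 0.0145, edgeR), and across all 15952 genes tested 6% were called, 3.88% higher and 2.12% lower. It was -0.04 (SE 0.05) with DEX and 0.25 (SE 0.04) with NE. All 13 differences were negative, from -0.29 to -0.03 with a median of -0.16, beside a median of 0.00 over all genes tested. MT-ND1 had the next smallest p (difference -0.26, SE 0.08, adjusted p = 0.0696, edgeR). Of the 97 nuclear members 0 were called, 1 had an unadjusted p below 0.05, DESeq2 also called 0, and the median difference was -0.03, with 63 of 97 below 0. That median had no stable sign. It was -0.12 without vehicle replicate 1 of the NE table, with 88 of 97 below 0, and above 0 without vehicle replicate 2 or 3 or NE replicate 1 of that table or vehicle replicate 1 of the DEX table, up to 0.03. The MT-ND2 difference missed the threshold without vehicle replicate 2 of the DEX table (adjusted p = 0.0503, edgeR). The count of mitochondrial genes called was 2 without vehicle replicate 3 of the DEX table, and the count of nuclear genes called was 1 without vehicle replicate 1 of the NE table.

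The 2 vehicle sets differed far more than treatment and vehicle did. The mitochondrial genes were lower in the vehicle libraries of the NE table than in those of the DEX table for 13 of 13 genes, with log2 differences from -1.83 for MT-ATP8 to -0.67 for MT-ND3 and a median of -1.39. This comparison used the fit of all 12 libraries, in which 51.6% of the 15952 genes tested were called, 25.8% higher and 25.8% lower, and the median of all genes was -0.01. Since the set and whatever run or batch lies behind each table cannot be told apart, the difference belongs to the tables and not to a treatment. MT-CO1 stood at 3781, 3853 and 4121 CPM in the NE-table vehicle libraries and at 12300, 12060 and 11790 CPM in the DEX-table vehicle libraries (log2 difference -1.62, SE 0.05, adjusted p = 7.5e-12, edgeR). The fitted ratio was 0.325, with little scatter inside either set. MT-ATP8 stood at 141, 128 and 137 CPM against 490.4, 511 and 439.5 CPM (log2 difference -1.83, SE 0.22, adjusted p = 0.000105, edgeR). MT-ND3 stood at 554, 488 and 510.1 CPM against 885, 846 and 742 CPM (log2 difference -0.67, SE 0.10, adjusted p = 9.7e-05, edgeR). All 13 genes lay apart without overlap, where 28.0% of all genes tested lay apart in that direction, and all 13 were called in every alternative fit.

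The nuclear members were mixed between the vehicle sets. Of 97 tested, 7 were called higher and 35 lower in the NE-table vehicle, which is 43.3% beside 51.6% of all genes, and the median log2 difference was -0.17. By direction, 25.8% of all genes were called higher and 25.8% lower. The members lay below the first share and above the second, which was not tested. Without vehicle replicate 1 of the NE table that median was -0.27, and with any other vehicle library left out it lay between -0.22 and -0.12. In complex IV 10 of 14 genes were called lower and 0 higher, in complex I 14 lower and 4 higher of 37, in complex III 4 lower and 1 higher of 9, and in complex V 5 lower and 0 higher of 17. In complex II 0 of 4 were called, with 1 unadjusted p below 0.05. Differences between complexes were not tested. Among called nuclear genes the largest negative differences were in COX6B2, known as a testis isoform, and NDUFA4L2, a paralog of the complex IV subunit NDUFA4, which had at most 53 counts in a library. COX6B2 stood at 0.746, 0.835 and 0.938 CPM in the NE-table vehicle and 2.15, 2.12 and 2.01 CPM in the DEX-table vehicle (log2 difference -1.31, SE 0.25, adjusted p = 0.000547, edgeR). NDUFA4L2 had a log2 difference of -0.93 (SE 0.28, adjusted p = 0.0126, edgeR). Its call ended without vehicle replicate 1 of the DEX table or vehicle replicate 2 or 3 of the NE table (edgeR, adjusted p from 0.0531 to 0.0862).

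ATP5MF, a subunit of the membrane part of complex V, followed at 142, 126 and 125 CPM against 207, 194 and 186 CPM (log2 difference -0.58, SE 0.07, adjusted p = 1.4e-05, edgeR). NDUFA1 and NDUFA2 of complex I, UQCR11 of complex III, COX6C of complex IV and ATP5F1E, ATP5ME and ATP5MG of complex V had log2 differences between -0.57 and -0.47. For these 8 genes, named for their large called falls, the NE-table vehicle libraries lay below the DEX-table vehicle libraries without overlap. Over all 97 tested nuclear members, 32 lay apart lower and 7 higher, where 28.0% and 28.2% of all genes tested did so. The NDUFA1 call ended without vehicle replicate 1 of the DEX table or vehicle replicate 2 or 3 of the NE table (edgeR, adjusted p from 0.0549 to 0.0608). The genes called higher included NDUFS1, NDUFV3 and NDUFA5 of complex I, UQCRC2 of complex III, NDUFAF2 and the read-through gene ATP5MF-PTCD1. The NDUFAF2 call ended without any single DEX-table vehicle library or NE-table vehicle replicate 1 (edgeR, adjusted p from 0.0640 to 0.0765). That of ATP5MF-PTCD1 ended in several fits, with adjusted p up to 0.199 (edgeR). Those of NDUFA5 and UQCRC2 ended with a trend on GC content and length removed (edgeR, adjusted p = 0.0590 and 0.0588). NDUFS1, the largest subunit of complex I, stood at 168, 181 and 174 CPM against 137, 131 and 136 CPM (log2 difference 0.37, SE 0.04, adjusted p = 2e-06, edgeR). NDUFV3 stood at 51.0, 51.1 and 50.6 CPM against 42.7, 42.2 and 38.5 CPM (log2 difference 0.31, SE 0.07, adjusted p = 0.00153, edgeR). Both genes lay apart in the direction opposite to most nuclear members, where 28.2% of all genes tested lay apart.

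Median transcript length and GC content differed between the nuclear genes called lower and the few called higher, which was not tested. Both values are those of an annotated transcript of median length for each gene, not of the form expressed here. The nuclear genes called lower had a median transcript length of 671 bases and a median GC content of 52.6%, and the 7 called higher had 1575 bases and 46.6%. Over all 97 tested nuclear genes the medians were 678 bases and 49.8%, and Spearman's rho with the log2 difference, given as a description across genes of the same libraries, was 0.11 for length and -0.14 for GC content. Over all genes called, the medians were 1295.5 bases and 54.1% for lower and 1874 bases and 48.1% for higher. With a per-library trend on GC content and length removed, 34 nuclear genes were lower and 8 higher, and 13 of 13 mitochondrial genes were lower. Counts of called nuclear genes moved with single libraries, from 42 to 26 without vehicle replicate 1 of the DEX table, to 27 without vehicle replicate 3 of the NE table and to 62, of which 57 were lower, without vehicle replicate 1 of the NE table. Cell markers differed too, where 25.8% of all genes tested were called higher and 25.8% lower. Of the 9 tested trabecular meshwork markers 8 were lower and 0 higher in the NE-table vehicle, with a summed level of 7393 to 9228 CPM against 7434 to 8456 CPM over all 13. Of 6 epithelial markers 4 were lower (summed level 334 to 415 CPM against 581 to 608 CPM), of 6 smooth muscle and pericyte markers 3 were lower and 1 higher (131 to 147 CPM against 199.8 to 208 CPM), and of 5 tested endothelial markers 3 were higher (16.7 to 18.8 CPM against 9.42 to 9.80 CPM). Of 3 tested immune markers CD68 was higher and CD14 lower, while PTPRC, the defining leukocyte marker, was below 1 CPM in mean and CD3E had 0 counts in all libraries (summed level 64.3 to 69.9 CPM against 28.9 to 31.0 CPM). Of 4 tested melanocyte and Schwann markers 2 were higher and 2 lower (8.19 to 9.62 CPM against 7.21 to 8.63 CPM). The part of these markers in the result was not tested.

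Several complex IV and V subunits exist as isoform families whose members differed widely in level. COX4I1 stood at 284 ± 16 CPM with vehicle in the DEX table and COX6A1 at 210.2 ± 13 CPM (SD, n = 3), while COX4I2, COX6A2, COX7B2, COX8C and ATP5MGL did not pass the filter on low counts in any comparison. The contractile-tissue isoform COX7A1 stood at 1.54, 1.76 and 1.70 CPM in the DEX-table vehicle libraries and at 1.66, 1.44 and 1.46 CPM with DEX, and its widely expressed counterpart COX7A2 at 146, 134 and 129 CPM and at 116, 127 and 133 CPM. Neither was called with DEX (edgeR, adjusted p = 0.741 and 0.229). NDUFA4L2, known as a gene induced by hypoxia, stood at 0.837, 0.751 and 0.662 CPM with NE and 0.700, 0.413 and 0.396 CPM with vehicle (log2 fold change 0.58, SE 0.27, adjusted p = 0.406, edgeR), while NDUFA4 had a log2 fold change of -0.06. The low isoform rests on at most 26 counts in a library. The 3 genes for the c-ring subunit, ATP5MC1, ATP5MC2 and ATP5MC3, had log2 fold changes of -0.12, -0.14 and -0.12 with DEX and of -0.13, -0.06 and -0.16 with NE, and without the block none was called.

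The genes that build, regulate and serve the chain were compared by lists. Across all genes tested, 6.65% were called higher and 3.46% lower with DEX, and 1.48% higher and 1.34% lower with NE. Of 46 further assembly factors and cytochrome c genes outside the rule, 0 were called with DEX (median log2 fold change -0.06) and 0 with NE (median -0.05). Of 30 regulators of mitochondrial biogenesis and mitochondrial transcription, 6 rose and 0 fell with DEX, and 3 rose and 0 fell with NE. With DEX these were NFE2L2, HIF1A, GABPB1, PPRC1, TWNK and EPAS1. The EPAS1 call held in 11 of 16 alternative fits and was lost with the replicate block (adjusted p = 0.0726, edgeR), and the TWNK call was lost without DEX replicate 2 (adjusted p = 0.0574, edgeR). GABPB1, the partner of the ETS factor GABPA, rose from 46.6 ± 0.7 to 59.6 ± 1.9 CPM (SD, n = 3; log2 fold change 0.36, SE 0.05, adjusted p = 0.000143, edgeR). PPRC1, a coactivator related to PGC-1 alpha, had a log2 FC of 0.26 (SE 0.05, adjusted p = 0.00504, edgeR), and TWNK, the mitochondrial DNA helicase, one of 0.24 (SE 0.05, adjusted p = 0.00978, edgeR). TFAM and NRF1 were not called with DEX (log2 fold change -0.10 and -0.17, adjusted p = 0.137 and 0.128, edgeR). With NE the 3 genes were NFE2L2, EPAS1 and PPARGC1A. PPARGC1A, which encodes PGC-1 alpha, a coactivator of respiratory genes, stood at 1.29, 1.36 and 1.35 CPM with NE and 0.446, 0.661 and 0.509 CPM with vehicle. It rose 2.46-fold, with a log2 SE of 0.20 and an adjusted p of 0.0146 by edgeR, from a level of 14 to 47 counts in a library. Its call ended without vehicle replicate 3, NE replicate 2 or NE replicate 3, with adjusted p from 0.0673 to 0.0879 (edgeR), and that of EPAS1 without vehicle replicate 2, NE replicate 2 or NE replicate 3, with adjusted p from 0.0640 to 0.118 (edgeR). With DEX the log2 fold change of PPARGC1A was 0.24 (SE 0.28, adjusted p = 0.661, edgeR).

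Of 16 tested genes for mitochondrial RNA processing and decay 0 were called with either agent, and their medians were -0.01 with DEX and -0.02 with NE. Over all genes tested, 6.65% were called higher and 3.46% lower with DEX, and 1.48% and 1.34% with NE. Of 22 tested TCA cycle genes 3 rose and 0 fell with DEX (PC, SUCLG2 and DLST), and 1 rose and 0 fell with NE (PC). The DLST call held in 12 of 16 alternative fits and was lost with the replicate block (adjusted p = 0.0749, edgeR). PC, pyruvate carboxylase, which replenishes oxaloacetate, had log2 fold changes of 0.31 (SE 0.06, adjusted p = 0.00253, edgeR) with DEX and 0.39 (SE 0.04, adjusted p = 0.00229, edgeR) with NE. Of the adenine nucleotide carriers and uncoupling proteins 0 were called with DEX (11 tested) or NE (12 tested). The mitochondrial ribosomal proteins, which translate the 13 mitochondrial messages, had 6 of 77 genes lower and 0 higher with DEX (median -0.08) and 0 called with NE (median -0.06). The cytosolic ribosomal proteins had 1 of 72 lower with DEX (median -0.08) and 0 called with NE (median -0.06). The medians of the nuclear respiratory genes, -0.10 with DEX and -0.07 with NE, lay near those of both ribosomal lists. Cell markers moved with the treatments as well. Of 9 tested trabecular meshwork markers FN1 and DCN were higher and FOXC1 was lower with DEX, with a summed level of 9160 to 10240 CPM against 7247 to 8259 CPM, and with NE 0 of 8 were called. Of the endothelial markers KDR was higher (list sum 9.05 to 10.7 CPM against 9.19 to 9.58 CPM) and of the smooth muscle and pericyte markers CNN1 was lower (list sum 181.5 to 182.5 CPM against 194.7 to 202.9 CPM) with DEX. Of 5 tested epithelial markers KRT18 was lower with DEX, and KRT18 and KRT19 with NE. The summed epithelial markers were 455 to 471 CPM with DEX against 567 to 592 CPM and 268 to 300 CPM with NE against 341 to 425 CPM. Their part in the results was not tested.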

How the data were processed

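The authors' deposited values are expected counts, that is, reads assigned to genes by estimation, in 2 tables of 6 libraries. This unit follows from the values, of which 49.3% to 55.6% above 0 were not whole. The aligner, counting tool, build, strand setting and kit were not given in the sources used here. Counts were rounded, filtered with filterByExpr, scaled by TMM and tested with edgeR 4.0.16 (quasi-likelihood, robust, R 4.3.3), with Benjamini-Hochberg adjustment over all genes tested. Each treatment was fitted with the vehicle libraries of its own table, and the vehicle sets and the difference between the effects in a fit of all 12 libraries. CPM are TMM-scaled. Gene type, length and coordinates came from GENCODE 29 (GRCh38), which holds all 115 members. Same-numbered libraries deviated together in the NE table (correlations of deviations 0.547, 0.167 and 0.331). A pairing by column number was read from this, since no label gives one. Mitochondrial genes, the 10 largest called changes each way, isoform families, called biogenesis regulators and the 3 smallest p of other lists were named, with fallback to the smallest p. Members and lists were chosen with earlier results of these data known. Counts were also simulated with the same set spread for every gene, which was not estimated from these data. On them the DEX fit recovered 30.0% of 1.3-fold and 89.9% of 2-fold changes, and the NE fit 27.3% and 93.8%. The fit of the vehicle sets recovered 14.3% and 90.6%, and that of the difference between the effects 4.08% and 81.2%. These shares are not the power of the tests for the members. DESeq2 1.42.0 and other settings were alternatives.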

Additional observations from a re-analysis of the deposited data

Results flagged for a closer look

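The effect on MT-ND2 differed between the 2 agents by the test of the difference itself. The DEX effect minus the NE effect was -0.288 on the log2 scale (adjusted p = 0.0145, edgeR). Each agent was present only in its own table, so a different response cannot be told apart from a difference between the tables. Every NE library of MT-ND2 lay above every vehicle library of that table, where 11.1% of all genes tested lay apart in that direction. Any pairing of these libraries would therefore give a rise in 3 of 3 pairs, so the pairs add nothing here. The MT-ND2 difference was called in 20 of 21 alternative fits, which reuse the same libraries, with adjusted p up to 0.0503 (edgeR). In the lists outside the chain, 5 genes differed between the agents by the same test and with the same limit from the tables. They were 3 of 30 biogenesis regulators and 2 of 23 TCA cycle genes, all higher, where 3.88% of all genes tested were called higher. Of 46 assembly factor and cytochrome c genes, 16 RNA processing genes, 12 carriers and 77 and 72 ribosomal protein genes 0 were called, where 6% of all genes tested were. PPRC1 differed by 0.386 (adjusted p = 0.0213, edgeR), with means of 65.8 CPM with DEX and 55.2 CPM with its vehicle, and 51.4 CPM with NE and 56.3 CPM with its vehicle. TWNK differed by 0.284 (adjusted p = 0.0289, edgeR) and HIF1A, the oxygen-regulated transcription factor, by 0.278 (adjusted p = 0.0450, edgeR). DLST, a subunit of the 2-oxoglutarate dehydrogenase complex, differed by 0.217 (adjusted p = 0.0240, edgeR). PDK4, a kinase that inhibits pyruvate dehydrogenase, differed by 2.09 (adjusted p = 0.0428, edgeR) on 1 to 16 counts in a library. The calls held in 14 of 21 alternative fits for PPRC1, 12 for TWNK, 11 for HIF1A and 14 for DLST, and in 5 of 19 for PDK4. Groups of 3 libraries were too small for a test of single outlying libraries.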

How the results depend on the processing

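With DEX, 3 nuclear genes were called, but 13 with no low-count filter, 0 with the replicate block, 5 with the GC and length correction, 1 with that correction and the block, and 0 in the fit of all 12 libraries. Leaving out 1 library in turn gave 0 to 19. Mitochondrial genes called with DEX were 0, or 1 with no filter, and 0 to 1 with a library left out. MT-ATP8 turned to -0.314 without DEX replicate 3 and ranged up to 0.199 with another library left out. All genes called with DEX ranged from 983 to 1835 with a library left out. The DEX table's numbers did not pair its libraries (correlations -0.182, 0.0163 and -0.186). With NE, the 1 mitochondrial gene became 2 with DESeq2 and 11 with the replicate block, with or without the GC correction, and 0 to 1 with a library left out. The 0 nuclear genes became 7 with the block and 13 with the block and the correction, and 0 to 1 with a library left out. All genes called with NE were 441, then 1688 with the block, 2098 with the block and the correction, 701 in the fit of all 12 libraries and 150 to 658 with a library left out. Without both libraries of replicate number 1, 2 or 3, an alternative added after seeing the data, they were 1280, 51 and 63, with 6, 0 and 0 mitochondrial and 1, 0 and 0 nuclear genes. With the replicate block as well they were 1978, 1048 and 690, with 12, 2 and 6 mitochondrial and 5, 6 and 0 nuclear genes. Between the vehicle sets, nuclear calls were 42, or 26 to 62 with a library left out, and 53 with the block. The same-number correlations between the sets were 0.379, -0.0333 and 0.33, and no label pairs the sets. The YY1 difference turned to 0.132 with the GC and length correction, with or without the block. Mitochondrial genes called for the difference between the effects were 1, but 2 with DESeq2, 2 with the GC and length correction and the block, and 0 to 2 with a library left out; nuclear ones were 0 to 1. The cause of these changes was not tested. Adding nuclear pseudogene copies to the mitochondrial genes, chosen after seeing the data, moved no count of members called. With 3 libraries a group, changes of the size seen in most members with DEX or NE were mostly not called without the block. A member that was not called is not shown to be unchanged.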

Other observations

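Regulators of the chain also differed between the vehicle sets, where the set cannot be told apart from whatever run or batch lies behind each table. Across all genes tested 51.6% were called between the sets, 25.8% higher and 25.8% lower. None of the biogenesis, TCA cycle and ribosomal lists given below had a larger share called in both directions together. Cell marker lists went the other way, with 8 of 9 tested trabecular meshwork markers and 4 of 6 epithelial markers called lower. Of 30 biogenesis and transcription regulators 4 were higher and 9 lower in the NE-table vehicle. PPARA, a receptor that controls fatty acid oxidation genes, stood at 17.0, 23.9 and 23.2 CPM against 10.4, 10.5 and 11.4 CPM (log2 difference 0.99, SE 0.12, adjusted p = 1.0e-05, edgeR). GABPB1 stood at 26.6, 26.7 and 24.7 CPM against 48.6, 47.5 and 47.0 CPM (log2 difference -0.88, SE 0.05, adjusted p = 9.3e-09, edgeR). TWNK, TFB2M and NRF1 were lower, with log2 differences of -0.55, -0.41 and -0.35. TFB1M and MGME1 were higher, at 0.40 and 0.16. Of 23 TCA cycle genes 9 were higher and 2 lower, led by SUCLG2 at 0.59 (SE 0.04, adjusted p = 7.8e-09, edgeR), OGDH at 0.55 and DLAT at 0.56. The mitochondrial ribosomal proteins had 8 of 77 higher and 25 lower (median -0.13), and the cytosolic ribosomal proteins 2 of 72 higher and 13 lower (median -0.12).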
